A study of Mus musculus with 4 samples.

Results

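The 10 genes described here encode the NF-kappaB transcription factor subunits (Nfkb1, Nfkb2, Rel, Rela and Relb), the cytoplasmic inhibitors that hold them (Nfkbia, Nfkbib and Nfkbie) and the nuclear members of the inhibitor family (Nfkbiz and Bcl3). They were chosen by family membership and found by gene symbol, and they are 10 of the 50600 genes counted. The libraries came from primary T helper 17 (Th17) cells of C57BL/6NJ mice, CD4 T cells that secrete IL-17, made under a linked protocol for the differentiation of CD4 T cells. There were 4 libraries, numbered as biological replicates 1 to 4, in 1 group with no other genotype, treatment or time. Sex was not collected, age is unknown and all libraries carry 1 shared donor label. A time of 48 hours stands in the file headers, though not in the labels. Since the labels do not say whether the replicates were separate animals or cultures, p-values measure only the spread between these samples, which may be technical. With 1 group, every comparison sets genes or libraries side by side.

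NF-kappaB proteins bind DNA as dimers. Rela, Rel and Relb carry activation domains. The products of Nfkb1 and Nfkb2 are made as long precursors, p105 and p100, that end in inhibitor-like ankyrin repeats and are processed to the DNA-binding forms p50 and p52. In resting cells the cytoplasmic IkB proteins hold the dimers until the IkB kinase complex marks them for degradation, which in T cells follows engagement of the antigen receptor and CD28. Nfkbia, Nfkb2 and other genes of the family are themselves known targets of the pathway. A slower, non-canonical route runs through the kinase NIK (Map3k14), the processing of p100 and dimers of p52 with Relb. In Th17 cells of the mouse, IkB-zeta (Nfkbiz) is known as a cofactor in the expression of the IL-17 genes.

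Library totals lay between 28555677 and 58104663 counts, and 17983 to 19433 genes had a count in a library. Levels are given in TPM, a unit that divides a gene's count by its exon length and scales the result to a fixed sum in each library. The label was checked against defining markers. All 5 T cell markers and all 5 Th17 markers were at or above 1 TPM in all 4 libraries, and their summed levels were 2337 to 2392 TPM and 15824 to 16495 TPM. None of 6 B cell markers and none of 5 dendritic cell markers reached that level, with sums of 1.44 to 1.91 and 0.570 to 1.18 TPM, and Ms4a1, Siglech and Cd209a had no count. Of 6 macrophage and monocyte markers only Cd68 did, with the whole list at 7.16 to 8.44 TPM and Lyz2 at 0. The CD8 T cell and stromal lists each had 1 of 4 markers at that level, with sums of 9.37 to 12.0 and 6.33 to 7.46 TPM. These are bulk samples, in which fewer cells of a type and less RNA per cell cannot be told apart.

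All 10 genes were detected, meaning a level of at least 1 TPM in all 4 libraries, as were 10223 of all 21764 protein-coding genes. All 10 passed the filter on low counts, as did 12434 of the 50600 genes counted. The median of the 10 was 110.6 TPM, beside 31.3 TPM over the 10223 detected protein-coding genes. Nfkbia was highest and Nfkbiz was lowest in TPM. Together the 10 genes summed to 1815 ± 60.0 TPM (SD, n = 4), of which Nfkbia took 39.4 ± 0.734% and Nfkb2 took 20.5 ± 0.567%. The shares depend on the length used: with the longest coding transcript of each gene Nfkbia took 33.5 ± 0.764%, Nfkb1 22.1 ± 0.739% and Nfkb2 14.6 ± 0.425%.

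Among the subunits, Nfkb2, the source of p100 and p52, had the highest level in TPM, at 391, 359.9, 355 and 380.1 TPM in replicates 1 to 4. Its gene (ENSMUSG00000025225.14) lies on the plus strand of mm10 at chr19:46304737-46312090, and its mean of 372 ± 16.9 TPM (SD, n = 4) was above 95.9% of detected protein-coding genes. Replicates 1 and 4 were the high ones. Nfkb1, the source of p105 and p50 (ENSMUSG00000028163.17, minus strand, chr3:135584655-135691547), stood at 167, 161, 167 and 161 TPM. Replicates 1 and 3 lay slightly above replicates 2 and 4, and the mean was 164 ± 3.54 TPM. The level of Nfkb1 rests on its length. The deposited exon length, which joins the exons of all its transcripts, is 12061 bases, whereas its longest coding transcript in GENCODE M21 has 4117 bases. With the longest coding transcript of every gene as its length, Nfkb1 averaged 349.8 ± 7.56 TPM, against 231 ± 10.4 TPM for Nfkb2, and their order turned round.

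Rela, which encodes p65, the most widely studied activating subunit, had 145, 142, 138 and 144 TPM in replicates 1 to 4 (ENSMUSG00000024927.7, plus strand, chr19:5637483-5648130). These values spanned a narrow range, with a mean of 142 ± 3.13 TPM and a coefficient of variation (CV, the SD as a percent of the mean) of 2.20%. Rel encodes c-Rel, a subunit found mainly in blood cells and needed for IL-2 expression in T cells. It had 64.1, 60.3, 65.8 and 66.5 TPM (ENSMUSG00000020275.9, minus strand, chr11:23736847-23770970), with replicate 2 the lowest. Relb, the partner of p52, had 59.8, 65.2, 57.5 and 61.7 TPM (ENSMUSG00000002983.17, minus strand, chr7:19606217-19629438). Replicate 2, where most of the other genes were low, was the highest library for Relb. Rel averaged 64.2 ± 2.78 TPM and Relb 61.0 ± 3.23 TPM (SD, n = 4 each), and their ranges overlapped.

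Among the cytoplasmic inhibitors, Nfkbia, which encodes IkB-alpha, the inhibitor that is resynthesised within the feedback loop of the pathway, had 730.2, 671, 712 and 752 TPM in replicates 1 to 4. Replicate 4 was the highest and replicate 2 the lowest, around a mean of 716 ± 34.6 TPM that was above 98.2% of detected protein-coding genes (ENSMUSG00000021025.8, minus strand, chr12:55489410-55492647). Nfkbib, which encodes IkB-beta, had 128, 135, 135 and 148 TPM (ENSMUSG00000030595.15, minus strand, chr7:28758251-28767512). Its replicate 1 was low and its replicate 4 high, around a mean of 136 ± 8.47 TPM. Nfkbie, which encodes IkB-epsilon, had 50.5, 45.4, 48.5 and 53.9 TPM, again with replicate 4 at the top and replicate 2 at the bottom (ENSMUSG00000023947.7, plus strand, chr17:45555716-45563169). Its mean was 49.5 ± 3.58 TPM, and its CV of 7.22% was the largest of the 10 genes. The CV that counting alone gives at its counts of 1043 to 2052 was 2.58%.

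Both nuclear family members were present. Bcl3, which encodes a protein that binds p50 and p52 homodimers, had 84.2, 83.9, 82.7 and 88.6 TPM (ENSMUSG00000053175.17, minus strand, chr7:19808462-19822770), with a mean of 84.9 ± 2.60 TPM. Nfkbiz had 25.2, 24.6, 24.6 and 26.2 TPM (ENSMUSG00000035356.16, minus strand, chr16:55811375-55838899). Both had their highest value in replicate 4, and the other 3 libraries lay close together. The mean of Nfkbiz, 25.1 ± 0.748 TPM, was above 43.8% of detected protein-coding genes, the lowest placing of the 10. Its CV of 2.98% was close to the 2.52% that counting alone gives at 1079 to 2155 counts.

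**Figure D1:**
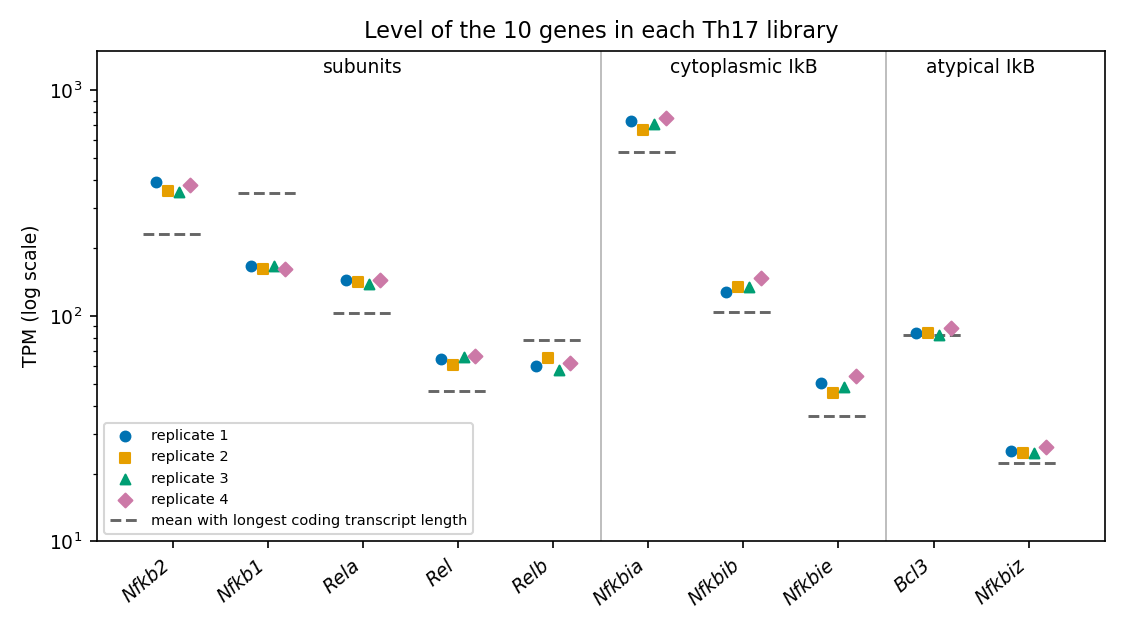
Level in TPM on a log axis of the 10 NF-kappaB and IkB genes, grouped by role, with 1 symbol per library and a dashed line at the mean that the longest coding transcript as length gives. The 4 libraries of a gene lie close together, and the genes span from 25.1 TPM for Nfkbiz to 716 TPM for Nfkbia.

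In order of mean TPM the genes ran Nfkbia, Nfkb2, Nfkb1, Rela, Nfkbib, Bcl3, Rel, Relb, Nfkbie and Nfkbiz, as the plot of levels by library shows. With the longest coding or the longest transcript as length, Nfkb1 came next after Nfkbia and ahead of Nfkb2, Nfkbib came just above Rela, and Relb above Rel. In CPM, with no length, Nfkb1 was first at 595, then Nfkb2 at 367 and Nfkbia at 346 CPM, Rel lay above Rela, and Nfkbie at 36.0 was lowest, below Nfkbiz at 37.9 CPM. Of the 9 neighbouring pairs in the order by TPM, 7 had ranges that did not overlap and kept their order in 4 of 4 libraries. With 16 sign patterns, the exact two-sided sign-flip test over 4 libraries cannot go below p = 0.125, so no pair can pass 0.05. Those 7 pairs each had an exact p of 0.125, which was 0.161 after Benjamini-Hochberg adjustment over the 9 pairs. The neighbours were picked by their order in these same libraries, so the p-values describe that order and do not test it. Rela and Nfkbib did not differ beyond their spread in TPM, with a log2 ratio of 0.06 ± 0.09 (SD, n = 4), Rela higher in 3 of 4 libraries and an exact p of 0.375 (adjusted 0.422). Rel and Relb did not either, with a log2 ratio of 0.07 ± 0.13, Rel higher in 3 of 4 libraries and an exact p of 0.5 (adjusted 0.5). The ranges of Rel and Relb overlapped only with the deposited exon length. With the longest coding transcript Relb, at 73.6 to 83.3 TPM, lay wholly above Rel, at 43.8 to 48.3 TPM. In CPM Relb, at 67.2 to 75.8, lay wholly below Rel, at 135 to 150. Rela and Nfkbib, too, were apart in CPM, at 113 to 118 and 82.9 to 96.9.

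Start sites and promoter letters were taken from RefSeq on GRCm38.p6, the assembly called mm10, in windows of 300 bases that run from 250 before to 50 after a gene's start. The table held 7 of the 10 genes, and Nfkb1, Relb and Nfkbiz were not in it. The windows are shown because several family members are known targets of the pathway. They were searched on both strands for the kappaB consensus of 10 letters. At least 1 match stood in 5 of the 7 genes (Nfkb2, Rel, Nfkbia, Nfkbie and Bcl3), and none in the windows of Rela and Nfkbib. Among all 27025 genes with a window the share with a match was 9.55%, and it was 12.2% among the 8217 detected protein-coding genes that it covers. A match is a description of letters, not evidence that a protein binds. The stretches with the matches nearest to a start are printed 5′ to 3′ on the gene's strand, with the matched letters in capitals.
Nfkbia, chr12:55492648-55492701, minus strand: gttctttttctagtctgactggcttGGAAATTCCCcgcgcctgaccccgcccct
Nfkb2, chr19:46304683-46304736, plus strand: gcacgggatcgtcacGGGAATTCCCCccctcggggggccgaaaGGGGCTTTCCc
Nfkb2 at the first later start, chr19:46305695-46305724, plus strand: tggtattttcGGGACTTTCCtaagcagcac
Rel, chr11:23771031-23771080, minus strand: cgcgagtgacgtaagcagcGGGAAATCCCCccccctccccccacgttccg
Nfkbie, chr17:45555574-45555623, plus strand: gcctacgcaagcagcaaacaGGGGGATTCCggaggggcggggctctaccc
Bcl3, chr7:19822734-19822763, minus strand: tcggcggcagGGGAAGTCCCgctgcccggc

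The Nfkbia match began 29 bases before its start. In the first window of Nfkb2 matches began 39, 38 and 11 bases before the start, and the first 2 of these share all but 1 of their letters, so the capitals run on. The first of 2 later starts of Nfkb2 had a match at position 11, counting the start as 1, and another, not printed, 236 bases before it. The match at position 11 also lies in the window of the last start, 225 bases before it. Matches lay 92 and 91 bases before the start of Rel, also overlapping, and 106 bases before that of Nfkbie. The Bcl3 match began at position 3, counted the same way. The 5 genes with a match ran from Nfkbie at 49.5 TPM to Nfkbia at 716 TPM, a range that also holds Rela and Nfkbib, which had none. Over detected protein-coding genes the median level was 31.3 TPM with a match and 31.2 TPM without one. In the wider lists, a match stood in 4 of 8 brake genes with a window, 9 of 21 textbook targets, 1 of 3 genes of the antigen receptor route, 2 of 8 IRF genes, 1 of 5 IkB-like modulators, 2 of 11 receptors, 1 of 6 ligands, 1 of 6 STAT genes, 1 of 7 ubiquitin pathway genes and 1 of 8 kinases.

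The composition of the family was then compared within libraries, as log2 ratios of TPM with 0.1 added to each, for 12 pairs of genes or sums. On this scale the level of Nfkb1 was below that of Nfkb2 by a log2 ratio of -1.18 ± 0.07 (SD, n = 4). Without length scaling the same ratio was 0.70, and with the longest coding transcript it was 0.60, so which of the 2 precursor genes gave more transcripts depends on the length used. Rel was below Rela by -1.15 ± 0.07 in TPM. In CPM, counts scaled to the library total with no account of length, Rel was above Rela at 0.31, since Rel has 7466 exon bases, against 2716 in Rela. Relb was below Rela by -1.22 ± 0.07 in TPM, with the same direction under every length tried. The size of that ratio changed, to -0.97 with the longest transcript, -0.70 in CPM and -0.41 with the longest coding transcript.

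Nfkbia exceeded the other cytoplasmic inhibitors and the main activating subunit in 4 of 4 libraries. Its log2 ratio was 2.39 ± 0.09 to Nfkbib, 3.85 ± 0.04 to Nfkbie and 2.33 ± 0.06 to Rela, which on the last pair is 5.03-fold. Nfkbiz was below Bcl3 by -1.75 ± 0.01, the smallest SD of the 12 ratios. It was further below Nfkbid, the gene of IkB-NS, a further nuclear family member outside the 10, by -4.21 ± 0.03. Nfkbid had 473, 443, 462 and 496 TPM in replicates 1 to 4, between the levels of Nfkb2 and Nfkbia. All 6 of these single-gene ratios with Nfkbia, Nfkbiz or Relb had an exact two-sided sign-flip p of 0.125 (adjusted over the 12 comparisons 0.136), as did Nfkb1 to Nfkb2 and Rel to Rela.

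In TPM the sums of the cytoplasmic inhibitors and of the subunits were close to each other, and the 2 nuclear members summed to only 110 ± 3.33 TPM. The 3 cytoplasmic inhibitors summed to 902 ± 42.6 TPM and the 5 subunits to 803 ± 20.6 TPM (SD, n = 4 each), a log2 ratio of 0.17 ± 0.05 with the inhibitors higher in 4 of 4 libraries. This direction depends on length too, since the ratio was -0.27 with the longest coding transcripts and -1.46 in CPM. Nfkb2 and Relb, the pair of the non-canonical route, summed to 433 ± 17.0 TPM, against 371 ± 5.36 TPM for Nfkb1, Rela and Rel, a log2 ratio of 0.22 ± 0.05. With the longest coding transcripts it was -0.69 and in CPM -0.96. Both ratios in TPM had an exact p of 0.125, adjusted 0.136.

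**Figure D2:**
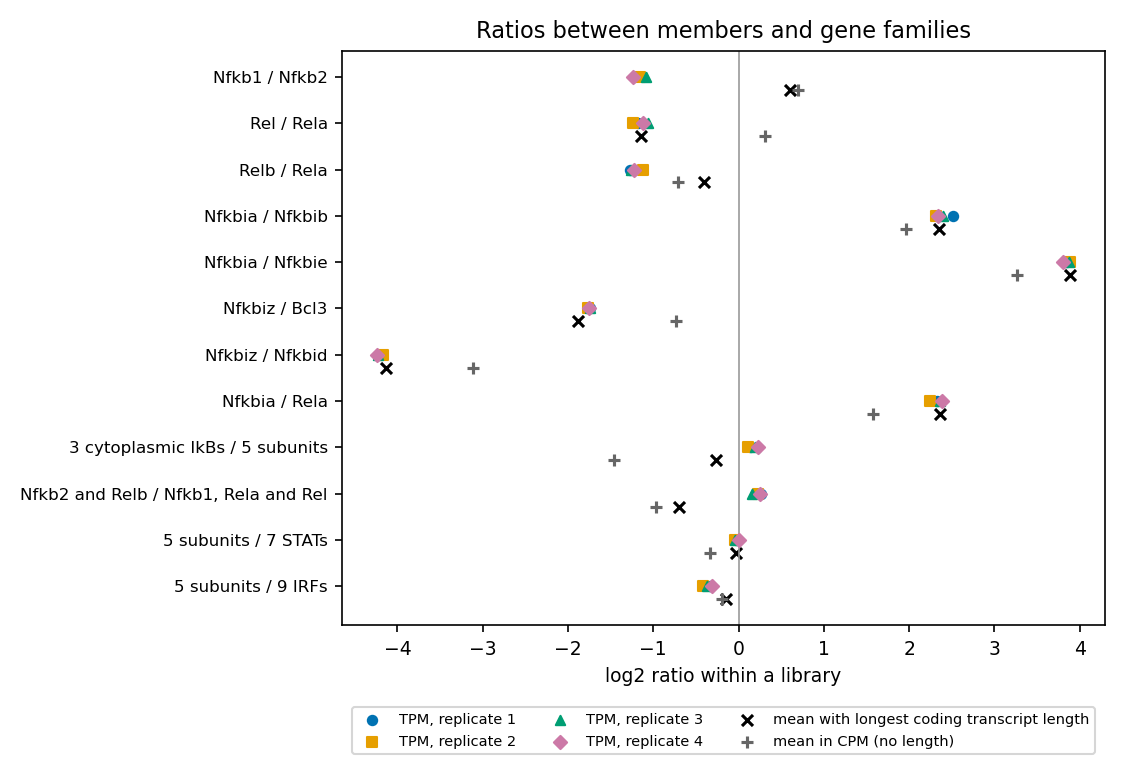
Log2 ratios within each library between genes and between sums, with coloured symbols for TPM in the 4 libraries, crosses for the mean with the longest coding transcript as length and plus signs for the mean in CPM. The ratios of Nfkbia to Nfkbib, Nfkbie and Rela stay right of 0 on all 3 scales, whereas Nfkb1 to Nfkb2 is -1.18 in TPM and 0.60 with coding transcript length.

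The spread between libraries in the plot of ratios was small beside the distance between scales. For Nfkb1 to Nfkb2 the 4 libraries lay between -1.24 and -1.09, while the change of length moved the mean to the other side of 0. The ratios of Nfkbiz to Bcl3 and of Nfkbia to its 3 partners kept their side on every scale drawn.

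Set against other signal-driven transcription factor families, the 5 subunits summed to 827, 789, 784 and 813 TPM in replicates 1 to 4, and the 7 STAT genes to 846, 815, 803 and 809.7 TPM. The ranges overlapped, with a log2 ratio of -0.03 ± 0.02 (SD, n = 4), the subunits higher in 1 of 4 libraries and an exact two-sided p of 0.25 (adjusted 0.25). In CPM the ratio was -0.34 ± 0.02, with the subunits lower in 4 of 4 libraries (exact p of 0.125), and with the longest coding transcripts it was -0.02. The 9 interferon regulatory factor genes summed to 1027 ± 22.7 TPM, above the 5 subunits in every library, at a log2 ratio of subunits to IRFs of -0.35 ± 0.05 (exact p of 0.125, adjusted 0.136). Irf4, a factor induced by antigen receptor signals, made up 813 ± 20.2 TPM of that sum. The ratio to the IRFs was -0.19 in CPM, -0.14 with the longest transcripts and -0.15 with the longest coding ones.

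Variation between the libraries was tested on the counts of all 12434 genes that passed edgeR's filter on low counts. By the first rule, a variable gene had a ratio of highest to lowest CPM of 2 or more and counts that departed from Poisson sampling around scaled means (adjusted p under 0.05). None of the 10 genes was called, beside 1.74% of all tested genes. A stricter test, on negative binomial deviance, allows for the spread between replicates that edgeR fits as a trend over level. Again 0 of 10 were called at an adjusted p under 0.05, beside 0.523% of all tested genes. The CV allowed by that trend was 0.0631, 0.0594 and 0.0590 for Nfkb1, Nfkb2 and Nfkbia and 0.0329 for Rela. The same spread was thus less readily called in Nfkb1, Nfkb2 and Nfkbia than in Rela. At an unadjusted p under 0.05, 8 of the 10 passed the Poisson test, beside 46.5% of all tested genes, and 1, Nfkbib, passed the negative binomial test, beside 4.48%. Nfkbib had a negative binomial p of 0.0292, adjusted 0.932 over all tested genes with the edgeR fit. With DESeq2 dispersions in place of edgeR's trend, 0 of the 10 were at an unadjusted p under 0.05.

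Counting noise alone did not cover the spread of most members, nor of many other genes at these depths. Asked only for an adjusted Poisson p under 0.05, without a minimum ratio, 7 of 10 passed, beside 36.6% of all tested genes. The Poisson test finds a given spread more readily at high counts. The median of the 10 genes was 110.6 TPM, beside 31.3 TPM over detected protein-coding genes. The Poisson shares, adjusted or not, are therefore not matched for level. Rela, Nfkbiz and Bcl3 did not pass, with adjusted Poisson p values from the edgeR-scaled counts of 0.187, 0.265 and 0.0627. The differences were small in size. The ratio of highest to lowest CPM was 1.04 in Nfkb1 and 1.20 in Nfkbie, with the other 8 genes between.

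The direction of these small differences was shared by most of the genes. In replicate 4, 9 of 10 lay above their own mean over the libraries, with a median shift of 0.06 in log2 CPM, beside 50.9% and 0.00151 over all tested genes. The exception was Nfkb1 at -0.02. In replicate 2, 9 of 10 lay below their mean, with a median shift of -0.03, and the exception was Relb at 0.09. Over all tested genes 50.3% lay above their mean in replicate 2, with a median shift of 0.000552. Replicates 1 and 3 had 5 and 3 of the 10 genes above the mean, beside 50.7% and 50.5% of all tested genes. Replicate 4 was the highest library for 7 of the 10 genes, beside 25.2% of all tested genes, and replicate 2 was the lowest for 5, beside 25.4%. The genes share 4 libraries, so these counts are a description and were not tested. Some other lists leaned the same way in replicate 4. All 5 T cell markers lay above their means and were highest there. Above their means lay also 7 of 10 tested receptors with a median shift of 0.05 and 4 of 6 IkB-like modulators with a median of 0.07. Nearer to the share of all tested genes were 3 of 5 Th17 markers, 14 of 25 textbook targets, 4 of 7 tested ligands and 6 of 11 kinases. Their median shifts were 0.02, 0.01, 0.006 and 0.01. Of the remaining lists, 3 of 7 STAT genes, 3 of 9 brakes, 2 of 8 tested IRF genes, 2 of 6 genes of the antigen receptor route and 1 of 9 ubiquitin pathway genes lay above.

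**Figure D3:**
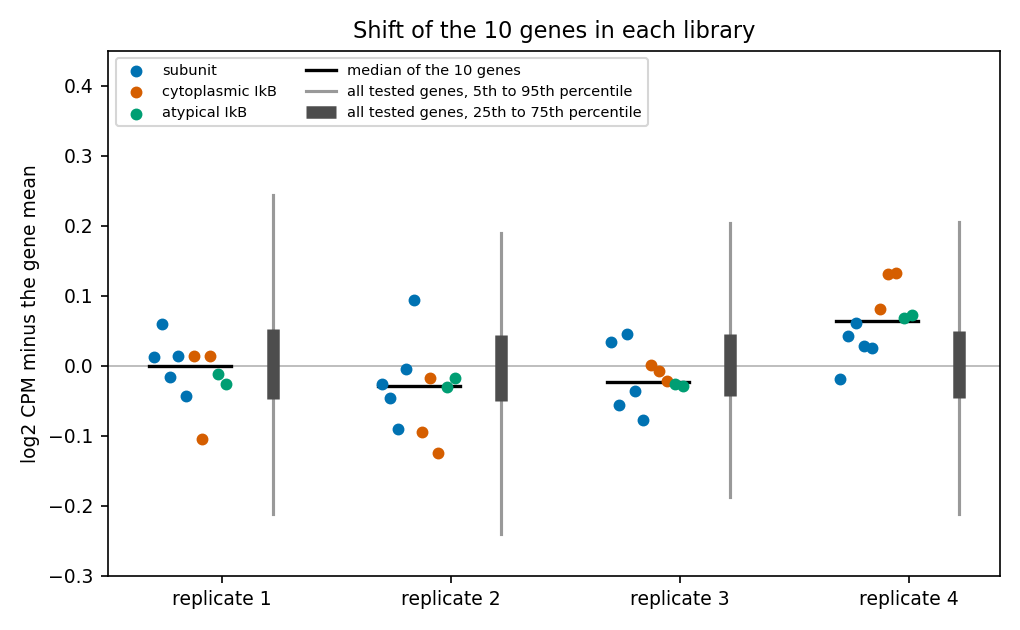
Shift of each of the 10 genes from its own mean over the libraries, in log2 CPM, by replicate, coloured by role, with a black line at the median of the 10. Grey bars give the 5th to 95th and the 25th to 75th percentiles of all tested genes. In replicate 4 all genes but Nfkb1 lie above 0, and in replicate 2 all but Relb lie below 0.

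The largest shifts in the plot of shifts by replicate were those of the inhibitor genes Nfkbib and Nfkbie in replicate 4, at 0.13 each, and that of Nfkbie in replicate 2, at -0.13. Nfkbia moved by 0.08 in replicate 4 and -0.10 in replicate 2. Over all tested genes, the middle 90% of shifts in replicate 4 ran from -0.21 to 0.21, a range that holds all 10 genes. That range is not matched for level and takes in genes of low level, which spread more between libraries. The 25th to 75th percentiles ran from -0.05 to 0.05. Nfkbib, Nfkbie, Nfkbia, Bcl3, Nfkbiz and Rel lay above that narrower range in replicate 4, and the rest lay inside it. The 5 subunits differed among themselves. Nfkb2 was high in replicates 1 and 4, Rel in replicates 3 and 4, and Relb in replicates 2 and 4.

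Against genes of like abundance, the spread of 9 of the 10 lay within the middle 90% of their level. The SD of log2 CPM over the libraries had a median of 0.06 in the 10 genes and 0.07 over all tested genes. When tested genes were divided into bins by level, 7 of the 10 lay above the median SD of their bin. Nfkbib alone lay above the 95th percentile of its bin, with an SD of 0.0974, against a percentile of 0.0847. Rela and Nfkb1 had the smallest SDs, at 0.0275 and 0.0283.

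**Figure D4:**
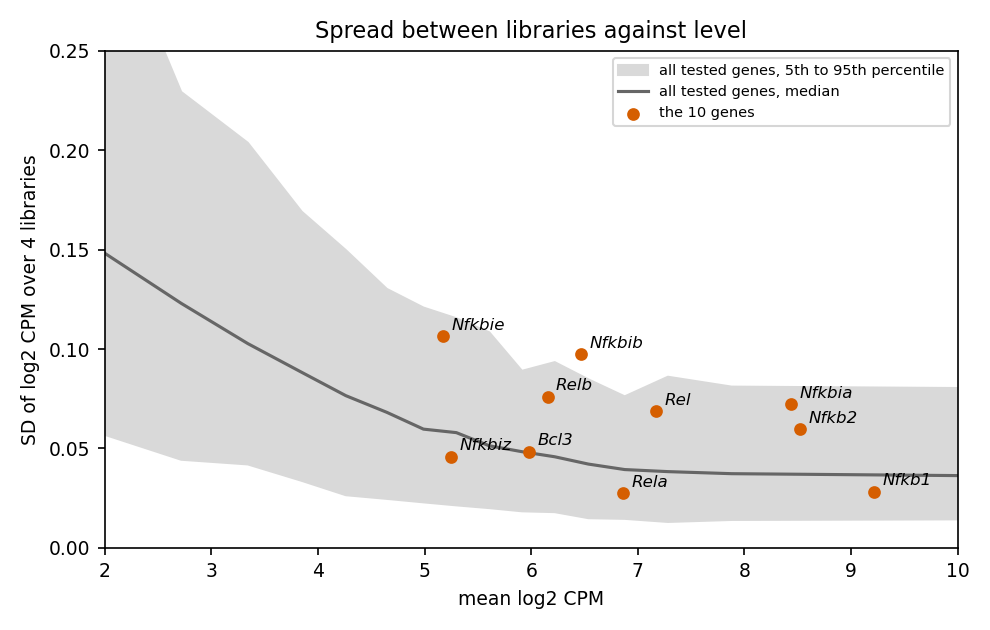
SD of log2 CPM over the 4 libraries against mean log2 CPM for the 10 genes, with a line for the median and a grey band from the 5th to the 95th percentile of all tested genes in bins of level. Nfkbib at 0.0974 is above the 95th percentile of its bin, and the other 9 genes lie inside theirs.

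The plot of spread against level also sets Nfkbie, with the largest SD of 0.107, inside the band, since genes at its level ranged up to 0.115 at the 95th percentile. Nfkbiz, at nearly the same level, had an SD of 0.0458, below the median of 0.0579 for that bin.

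The rest of the pathway was described from lists chosen by role. Levels of these lists are given with the deposited exon length only, so the order of genes within a list can depend on length. The IkB kinase complex was present, with Chuk (IKK-alpha) at 84.9 ± 3.02 TPM, Ikbkb (IKK-beta) at 17.8 ± 0.290 TPM and its scaffold Ikbkg (NEMO) at 17.0 ± 0.760 TPM (SD, n = 4 each). The counts of Chuk, at 3725 to 7542, and of Ikbkb, at 2915 to 5971, lay much closer. Most of their gap in TPM thus comes from the exon lengths entered. All 11 kinase genes were detected, from Map3k7 (TAK1) at 128 and its binding partner Tab2 at 95.1 TPM to Ikbke at 10.1 TPM. NIK, from Map3k14, was at 23.9 ± 0.726 TPM. On the route from the antigen receptor, Malt1, which encodes a protease that relays the signal, had 449 ± 20.2 TPM. The costimulatory receptor gene Cd28 had 166 TPM, the ubiquitin ligase gene Traf6 had 107 TPM and Bcl10 had 41.2 TPM. Among 9 genes of ubiquitin ligases that act on the pathway, all were detected, and Skp1a at 325, Fbxw11 at 204 and Cul1 at 140.2 TPM led. Fbxw11 and Btrc encode the paired receptors that recognise marked IkB proteins, and Btrc was the lowest of the list at 12.7 TPM.

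Of the 9 brakes on the pathway 8 were detected. The deubiquitinase gene Otulin had 135 TPM, Tnip1 had 132 and Tnip2 had 102 TPM, and both of these encode partners of A20. A20 itself, from Tnfaip3, was at 56.5 ± 0.924 TPM, while Tnip3 was at 0.146 TPM. Among the 6 IkB-like and nuclear modulators Nfkbid at 469 ± 22.2 TPM stood well above Nkrf at 52.3 and Nfkbil1 at 45.9 TPM, and Nkiras1 was the lowest at 6.69 TPM.

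Receptors and ligands covered a wider span. Of 12 receptors 10 were detected, with the costimulatory receptor OX40, from Tnfrsf4, at 923 ± 53.4 TPM, GITR (Tnfrsf18) at 134 and the second TNF receptor (Tnfrsf1b) at 84.4 TPM. RANK, from Tnfrsf11a, was at 0.0627 TPM. Of 8 ligands 7 were detected, led by Lta at 2864 ± 158, Tnf at 607 ± 16.9 and Cd40lg at 168 TPM. Il1b had no count in any library, which for a library taken alone puts a 95% upper limit of about 3 on the expected count. All 25 textbook targets were detected, from Il17f at 11569 ± 117 and Il17a at 4436 ± 179 TPM, the Th17 cytokine genes, to the adhesion molecule gene Vcam1 at 3.66 ± 0.501 TPM. The median of the targets was 91.0 TPM, beside 31.3 TPM over detected protein-coding genes.

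**Figure D5:**
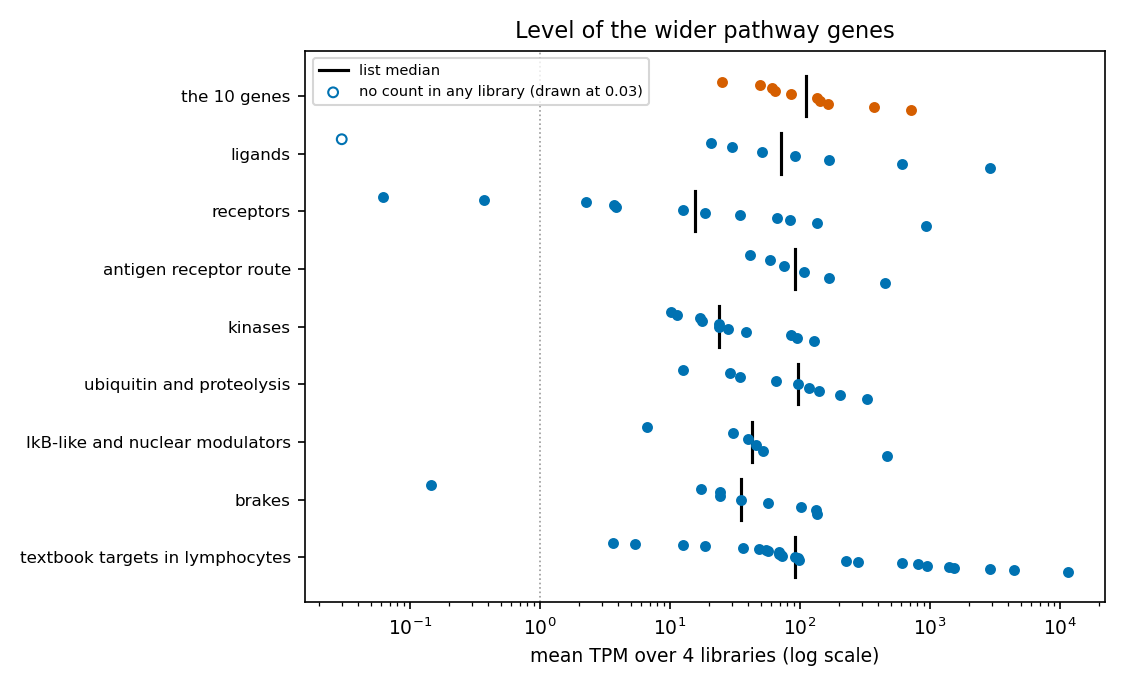
Mean TPM over the 4 libraries, on a log axis, of the 10 genes and of every gene in 8 pathway lists, with 1 row per list, a black bar at each list's median, a dotted line at 1 TPM and an open circle, drawn at 0.03, for the gene with no count. The 10 NF-kappaB and IkB genes have a median of 110.6 TPM, and the kinase and receptor lists have medians of 23.9 and 15.7 TPM.

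Beside the family's own median of 110.6 TPM in the plot of pathway lists, the kinases had a median of 23.9 TPM, the receptors 15.7, the brakes 35.5 and the ubiquitin pathway genes 96.1 TPM. The lists differ in size and overlap in part, and no list was tested against another. Of the 94 distinct genes outside the 10, STATs and IRFs included, 90 were tested for variation between libraries on the edgeR-scaled counts. The Poisson rule called 0 of them, beside 1.74% of all tested genes, and the negative binomial rule 0, beside 0.523%. At shares this low, few calls among 90 genes would be looked for, so the count of 0 does not set these genes apart. At an unadjusted negative binomial p under 0.05 there were 9 of the 90, beside 4.48% of all tested genes.

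Position and overlap bear on what the counts can hold. No exon of the 10 genes shared a base with a gene on the same strand. On the opposite strand Nfkbib shared 314 bases, 14.5% of its exon length, with Ccer2, which had 0, 0, 3 and 0 counts, and 42 bases with Sirt2, which was at 84.2 TPM. Bcl3 shared 161 bases with Gm16175, which had no count, and Nfkb2 shared 4 bases with Psd. The counting used strand. Relb and Bcl3 are neighbours on chromosome 7, 179023 bases apart on the same strand, with 10 protein-coding genes between them. Of those 10 genes 4 were detected and 2 lay above Relb, the lower of the pair.

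For each gene, the protein-coding gene with the most similar levels was sought by the root mean square difference of log2(TPM + 0.1) over the 4 libraries. Rel was nearest to Wipf1, with a difference of 0.0110, and Rela to Lmf2, also 0.0110. Nfkb1 was nearest to Ndufv2 at 0.0195, Nfkbib to Emc6 at 0.0202, Nfkbiz to Aaed1 at 0.0214, Relb to Rmdn3 at 0.0242 and Bcl3 to Mrpl38 at 0.0252. The more abundant Nfkb2 and Nfkbia had their nearest genes farther off, Calm3 at 0.0363 and Cox6a1 at 0.0393, and Nfkbie had 2700062C07Rik at 0.0352. The 10 genes themselves were left out of the search, so likeness among them was not measured. With 4 libraries of 1 group, such likeness describes level and small shifts only.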

How the data were processed

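RNA of 4 libraries of 1 group was sequenced. The assay label reads total RNA, while the linked library protocol names poly(A) RNA. The authors deposited raw fragment counts per gene and exon lengths, made, per the file headers, with featureCounts 1.4.6-p4 on paired, reverse-stranded reads with both ends mapped, on GENCODE M13 gene models; the labels name mm10. Fragments that map to several places or overlap 2 genes were left uncounted. No source used here names the aligner.

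Symbols came from GENCODE M21 by gene ID without version (50376 of 50600 genes). TPM was computed here from the deposited counts and exon lengths in Python 3.11.15. A detected gene had at least 1 TPM in all 4 libraries. Variation was tested with edgeR 4.0.16 in R 4.3.3, using TMM scaling and its default filter (12434 genes), on Poisson and negative binomial deviances with 3 degrees of freedom and Benjamini-Hochberg adjustment at 0.05. The ratio of CPM used a prior count of 0.5, shifts and SDs a prior count of 2. Pairs were compared by exact two-sided sign-flip tests. The procedure for variation was run on counts simulated at edgeR's trended dispersion, which cannot show whether that trend fits these libraries. Totals differ by library, and the counting CV given is for counting error only.

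The genes, pairs and lists were chosen with earlier results of these data known. Named genes are the 10, the 3 highest and the lowest of each pathway list, and the nearest gene to each of the 10. Ikbkb, Ikbkg, Map3k14, Tnfaip3 and the marker genes named were added for their roles. Alternatives were DESeq2 1.42.0 size factors and dispersions, no filter, other ratios, pseudocounts, prior counts and lengths, another TPM denominator and each replicate left out. The longest coding transcript as length, and the tests without genes of chromosomes X, Y and M, were chosen after seeing the data.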

Additional observations from a re-analysis of the deposited data

How the results depend on the processing

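Length decided several directions. The log2 ratio of Nfkb1 to Nfkb2, -1.18 in TPM, became 0.70 in CPM, 0.59 with the longest transcript and 0.60 with the longest coding transcript. Rel to Rela became 0.31 in CPM. Rel and Relb, which overlapped in TPM, lay apart with the longest coding transcript, Relb higher, and in CPM, Rel higher. The 3 cytoplasmic inhibitors to the 5 subunits, 0.17 in TPM, became -1.46 in CPM, -0.23 with the longest transcript and -0.27 with the longest coding transcript, and Nfkb2 and Relb to Nfkb1, Rela and Rel, 0.22 in TPM, became -0.96, -0.81 and -0.69. These changes follow from the lengths entered. All 12 ratios kept their direction under other pseudocounts and with each replicate left out.

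Levels moved by more than their SD as follows. With the longest transcript, Nfkbia was at 578, Nfkb1 at 378, Nfkb2 at 251, Nfkbib at 113, Rela at 113, Bcl3 at 89.8, Relb at 57.3, Rel at 50.8, Nfkbie at 31.6 and Nfkbiz at 24.3 TPM. With the longest coding transcript, Nfkbia was at 531, Nfkb1 at 349.8, Nfkb2 at 231, Nfkbib at 104, Rela at 103, Relb at 78.1, Rel at 46.7, Nfkbie at 35.8 and Nfkbiz at 22.3 TPM. With only protein-coding genes other than mitochondrial ones in the TPM denominator, which raised all 10 alike, Nfkbia was at 759, Nfkb2 at 394, Nfkb1 at 174, Rela at 151, Bcl3 at 90.0, Rel at 68.0, Relb at 64.7 and Nfkbiz at 26.7 TPM.

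The Poisson rule called 216 of all tested genes, 1097 with no filter on low counts, 486 at a ratio of 1.5, and 141 to 156 with 1 replicate left out. Without replicate 4 it called 141. The negative binomial test called 65, 113 with no filter, 18 when a ratio of 2 was also asked, and 32 to 49 with 1 replicate left out, with 35 without replicate 1 and 32 without replicate 4. With DESeq2 dispersions it called 0, with 75 at an unadjusted p under 0.05, beside 557 by edgeR's trend. None of the 10 genes was called by either rule under any of these settings. Leaving out genes of chromosomes X, Y and M gave 199 and 85, and DESeq2 size factors 215 and 65.

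Depth limits the low genes most, since counting alone gives a CV of 2.58% for Nfkbie.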
